A study of Mus musculus with 32 samples.

Results

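Immature dendritic cells (iDCs) and IL-4-treated macrophages were compared under the PPARγ agonist rosiglitazone (RSG) in cells of 4 Pparg+/- LysCre mice of the C57Bl/6 strain. The members were the 8 arrays, of 32 in the series, whose labels give this genotype and RSG. They were 4 iDC and 4 macrophage arrays, and each mouse gave 1 of each. Femoral bone marrow was cultured for 9 days with 20 ng/ml M-CSF and 20 ng/ml IL-4 for macrophages, or with 20 ng/ml GM-CSF and 20 ng/ml IL-4 for iDCs. Both cell types therefore received IL-4, and the colony-stimulating factor was what differed. RSG was given at 1 µM, and vehicle was a mixture of DMSO and ethanol. The 8 vehicle-treated arrays of the same 4 mice (mice 1, 2, 3 and 4) and the 8 RSG-treated and 8 vehicle-treated arrays of 4 Pparg fl/- LysCre mice (mice 5, 6, 7 and 8) served for comparison. Both genotypes carry the LysCre transgene, which expresses Cre recombinase from the lysozyme promoter of myeloid cells. Pparg+/- cells have 1 null allele and keep 1 working allele, so they are not wild-type, and in Pparg fl/- cells the remaining allele is loxP-flanked.

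PPARγ is a nuclear receptor that binds DNA together with RXR and is activated by fatty acid derivatives and by drugs of the thiazolidinedione class, of which RSG is one. In macrophages and DCs it is known for genes of lipid uptake, storage and transport, and IL-4 raises its expression through STAT6. M-CSF drives bone marrow precursors toward macrophages, whereas GM-CSF with IL-4 gives DC-like cells that take up antigen. The question asked was whether the agonist brought the expression profiles of these cell types together or moved them apart.

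The arrays list most probes by gene model identifiers. A symbol could be given to 324 of 33012 noncontrol probes (0.981%), of which 167 were tested. None of the 22 DC markers and none of the 21 macrophage markers listed for the check had a named probe, so the cell type labels were not checked against markers, and Pparg itself was not analysed here. A probe was counted as detected at a signal-to-noise ratio (S/N) of at least 3. The RSG-treated macrophage arrays of mice 1, 2, 3 and 4 detected 13959, 15250, 13933 and 13830 probes. The matching iDC arrays detected 16248, 15525, 15533 and 14699. The iDC array was the higher in 4 of 4 mice, by 1258 ± 875 probes (SD, n = 4; exact two-sided sign-flip test, p = 0.125, the smallest that 4 mice allow). Under vehicle the order was the other way in 4 of 4 mice, with a mean difference of -533 ± 510 probes (SD, n = 4). Over the 10571 probes detected on all 16 Pparg+/- arrays, the shares called in the comparisons that follow were 29.6% under RSG, 30.3% under vehicle and 5.59% for the change between them (294 differences larger and 297 smaller under RSG).

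Under RSG, iDCs and macrophages differed in a large share of the probes measured. Of 16620 probes tested, 5062 (30.5%) differed by at least 1.5-fold at a Benjamini-Hochberg adjusted p under 0.05 in limma with the mouse as a block, and all calls in this text use this rule. Of these, 2612 (15.7%) were higher in iDCs and 2450 (14.7%) were higher in macrophages (2943 and 2139 after median scaling). The median size of the called differences was 1.31 on the log2 scale for probes higher in iDCs and 1.11 for probes higher in macrophages. The 4 iDC values and the 4 macrophage values did not overlap for 7009 probes (42.2%), and 4468 probes (26.9%) were both called and without overlap. All levels below are log2 signals after quantile normalization, and all differences are iDC minus macrophage unless stated otherwise. Where a probe was detected on some arrays of a group only, the fitted difference includes signal near background and its size is uncertain.

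The genes named here spanned fitted differences from 6.41, higher in iDCs, to -4.51, higher in macrophages. Both ends include signal near background, so their sizes, and the order of the largest iDC-high genes, are uncertain. Among the 167 named probes, 32 were called higher in iDCs and 24 higher in macrophages (33.5% in all, close to the 30.5% of all probes). Of these 56, 49 had groups that did not overlap, a share close to that of all called probes (4468 of 5062). The iDC-high genes included an MHC class I gene, receptor partners and zinc finger proteins, and the macrophage-high genes included galectins, a LIM-domain protein and a copper chaperone.

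H2-Q8, a nonclassical MHC class I gene of the Qa region, was detected in iDCs alone. Its signal was 15.22, 15.61, 15.74 and 16.00 in the RSG-treated iDCs of mice 1, 2, 3 and 4, and 9.08, 9.36, 10.67 and 9.73 in the macrophages, where it was detected on 0 of 4 arrays. The lowest iDC value lay far above the highest macrophage value, and the level was at least 61.1-fold higher in iDCs (adjusted p = 2.26e-09). For a probe not detected in a group, "at least" gives the mean of the other group over the higher of the probe's own signal and the lowest detected signal of each array. It is a ratio of means that allows for background but not for the spread between mice. Where the other group was detected on some arrays only, it is not a lower bound. Under vehicle it was again detected on 4 of 4 iDC and 0 of 4 macrophage arrays (adjusted p = 1.29e-09). H2-Q7, a neighbouring gene of the same family, was measured at 19.33 ± 0.26 in iDCs and 18.25 ± 0.13 in macrophages (SD, n = 4), a difference of 1.07 ± 0.11 (SE; adjusted p = 6.92e-08). Both MHC probes tested were thus higher in iDCs, against 15.7% of all probes called higher. However, class I genes are close in sequence and the probes may share signal.

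Gpr173, an orphan G protein-coupled receptor, stood at 15.18, 15.44, 15.48 and 15.84 in RSG-treated iDCs. In macrophages it was 11.49 and 11.38 in mice 1 and 2 but 6.96 and 6.49 in mice 3 and 4, and it was detected on 2 of 4 arrays. The groups did not overlap. The macrophage values of mice 1 and 2, scanned on one day, were above those of mice 3 and 4, scanned on another, whereas in vehicle-treated macrophages (11.92, 12.41, 6.80 and 12.42) mouse 3 alone was low. The difference was 6.41 ± 1.11 (SE; adjusted p = 7.64e-05) over both days, 3.87 within the first day (adjusted p = 0.0671) and 8.94 within the second (adjusted p = 0.000454). In vehicle-treated iDCs of mouse 3 the same probe was at 6.83, against 15.57 to 15.94 in the other 3 mice.

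Ramp3 and Ramp1 encode accessory proteins that set the ligand preference of the calcitonin receptor-like receptor. Both were higher in iDCs, against 15.7% of all probes called higher. Ramp3 was 13.01, 12.38, 12.10 and 11.97 in RSG-treated iDCs and 10.52, 10.25, 10.12 and 10.09 in macrophages. The groups were well apart, with a difference of 2.12 ± 0.24 (SE; adjusted p = 4.82e-07). Ramp1 was detected in iDCs of all 4 mice and in macrophages of none, at least 3.73-fold higher (adjusted p = 0.00176), although the highest macrophage value (9.41) lay above the lowest iDC value (9.26). Chrnb1, the beta 1 subunit of the muscle-type acetylcholine receptor, was 3.98-fold higher in iDCs (adjusted p = 5.85e-05). Its level was low and detected on 3 of 4 iDC arrays, so this size is uncertain.

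Sgms2 makes sphingomyelin, and Paqr3 holds Raf kinase at the Golgi. Sgms2 was 14.21, 14.06, 13.79 and 14.03 in RSG-treated iDCs and 12.54, 12.61, 12.60 and 12.75 in macrophages. The groups were apart, with a difference of 1.40 ± 0.24 (SE; adjusted p = 6.23e-05). Paqr3 was higher in iDCs by 1.64 ± 0.32 (adjusted p = 0.000233). The call for Paqr3 was lost within the first scan day alone (1.32, adjusted p = 0.0534).

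Aldh3a1, an aldehyde dehydrogenase, was detected on 4 of 4 RSG-treated iDC arrays (11.46, 11.41, 12.11 and 11.05) and on 0 of 4 macrophage arrays, at least 5.26-fold higher (adjusted p = 5.51e-05). In vehicle-treated iDCs it was detected on 1 of 4 arrays, and the change of its difference with RSG was not called (adjusted p = 0.155). The kinase gene Lrrk1 was 13.49 ± 0.28 in iDCs and 11.95 ± 0.07 in macrophages (SD, n = 4), a difference of 1.54 ± 0.11 (adjusted p = 3.7e-10). Nupr1l was higher in iDCs by 1.66 ± 0.29 (adjusted p = 7.59e-05), and B9d1, a protein of the base of the cilium, was at least 3.02-fold higher (adjusted p = 0.0215). The B9d1 call was lost in each scan day alone and without mouse 1 (1.45, adjusted p = 0.0839) or mouse 3 (1.25, adjusted p = 0.15).

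Of 5 zinc finger and BTB genes tested, 4 were called higher in iDCs and none lower (15.7% of all probes were called higher). Zbtb18, a transcriptional repressor, was 15.76, 15.86, 15.83 and 16.08 in RSG-treated iDCs and 14.23, 14.32, 14.62 and 14.87 in macrophages, with a difference of 1.37 ± 0.19 (SE; adjusted p = 4.98e-06). Zfp146 differed by 1.36 (adjusted p = 0.00173). This call was lost by the methods' t-test (adjusted p = 0.0642) and within the second scan day (0.92, adjusted p = 0.156). Zfp945 was at least 2.54-fold higher in iDCs (adjusted p = 0.00579), and its change with RSG was not called (adjusted p = 0.0641). Zkscan17 was the fourth, with a difference of 0.68 (adjusted p = 3.49e-06). In Pparg fl/- cells under RSG, the differences of Zbtb18, Zfp146 and Zfp945 lay further toward macrophages (adjusted p of the genotype difference = 0.00464, 0.0135 and 0.022). With the RSG-treated arrays alone these genotype differences were not called (adjusted p = 0.0686 to 0.0866).

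Genes of haemoglobin handling were low but higher in iDCs under RSG, and both erythroid genes tested were called, against 15.7% of all probes called higher in iDCs. Eraf, the chaperone of free alpha-globin, was 9.56, 9.33, 10.41 and 9.81 in RSG-treated iDCs and was detected on 0 of 4 macrophage arrays, at least 6.83-fold higher (adjusted p = 0.00185). Under vehicle Eraf was detected on 1 of 4 iDC and 0 of 4 macrophage arrays and was not called (adjusted p = 0.991). The RSG effect on Eraf was called in iDCs (adjusted p = 0.0043), but the change of its cell type difference was not (adjusted p = 0.0875). Hba-a1, an alpha-globin gene, was detected on 2 of 4 iDC and 0 of 4 macrophage arrays. It was 2.34-fold higher (adjusted p = 0.0131), a size that includes background in iDCs, with groups that overlapped. These were the 2 of 16 listed erythroid genes with a tested probe, and the part of erythroid cells in these values was not tested.

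Among signalling genes, 4 probes were picked after their values were seen, for Stat5a, Stat5b and Cebpb. Stat5a, a transcription factor activated by GM-CSF, was 13.28 ± 0.29 in iDCs and 12.51 ± 0.11 in macrophages (SD, n = 4; difference 0.77, adjusted p = 3.07e-05). Its near relative Stat5b differed by 0.24 and was not called. Both probes for Cebpb, a transcription factor of myeloid cells, were higher in iDCs, by 0.85 (adjusted p = 5.9e-05) and 0.83 (adjusted p = 0.00342). Nlrp3, the inflammasome sensor, was higher by 1.26 (adjusted p = 0.0265) with overlapping groups, and the RNA sensor Tlr7 differed by 0.17 and was not called.

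On the macrophage side, the transcript 1110032E23Rik had the largest difference among named genes. It was 12.78, 12.66, 13.03 and 13.07 in RSG-treated macrophages and 9.27, 8.97, 7.81 and 7.46 in iDCs, where it was detected on 2 of 4 arrays. The groups were far apart (-4.51 ± 0.33, SE; adjusted p = 7.67e-10).

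Lgals1 and Lgals7, which encode galectins, were both higher in macrophages and were the 2 lectin genes tested. Of all probes, 14.7% were called higher in macrophages. Lgals1 was 19.50, 19.51, 19.13 and 19.22 in RSG-treated macrophages and 17.52, 17.25, 17.16 and 16.83 in iDCs, a difference of -2.15 ± 0.14 (SE; adjusted p = 1.76e-10). Lgals7 differed by -1.48 ± 0.22 (adjusted p = 1.53e-05). Both genes were also called in this direction under vehicle, Lgals1 by -1.93 and Lgals7, detected there on 1 of 4 iDC arrays, at an adjusted p of 7.84e-08.

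Crip1, a small LIM-domain protein, was bright in both cell types. Its signal was 18.61, 18.69, 18.58 and 18.69 in RSG-treated macrophages and 16.38, 16.51, 16.59 and 16.38 in iDCs, so that each group spanned little beside a difference of -2.18 ± 0.24 (SE; adjusted p = 2.72e-07). Atox1, a copper chaperone, was 18.72, 18.66, 18.73 and 18.74 in macrophages and 17.34, 17.20, 17.28 and 17.38 in iDCs (-1.41 ± 0.13, adjusted p = 3.49e-08). The spread within each group was again small against the difference.

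Among secreted and signalling proteins, Ntn1, the guidance cue netrin-1, differed by -2.16 ± 0.36 (SE; adjusted p = 4.26e-05) and was detected on 4 of 4 macrophage and 2 of 4 iDC arrays. Tnfsf13, the B cell factor APRIL, was 15.67, 15.42, 15.27 and 15.29 in RSG-treated macrophages and 14.35, 14.33, 14.56 and 14.24 in iDCs (-1.04 ± 0.10, adjusted p = 2.55e-08). The kinase gene Hipk2 differed by -1.25 ± 0.09 (adjusted p = 9.1e-10) and Jun, a subunit of the AP-1 transcription factor, by -0.92 ± 0.09 (adjusted p = 9.75e-08). H2bc13, a histone H2B gene, differed by -1.53 (adjusted p = 2.04e-06), Nt5dc3 by -1.45 (adjusted p = 0.00042), and Paqr9 was at least 4.68-fold higher in macrophages (adjusted p = 1.95e-06).

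Ear1, an eosinophil-associated ribonuclease that belongs to a family of near-identical genes, was 19.21, 19.18, 19.53 and 19.23 in RSG-treated macrophages and 17.49, 17.57, 18.32 and 17.76 in iDCs. The difference was -1.50 ± 0.35 (SE; adjusted p = 0.00133), and within the second scan day it was -1.34 (adjusted p = 0.0582). Both cell types rose with RSG, iDCs by 2.81 (adjusted p = 1.12e-05) and macrophages by 1.75 (adjusted p = 0.00635). The difference between the cell types was -2.56 under vehicle, and its change with RSG, 1.06, did not pass the test (adjusted p = 0.226).

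**Figure D1:**
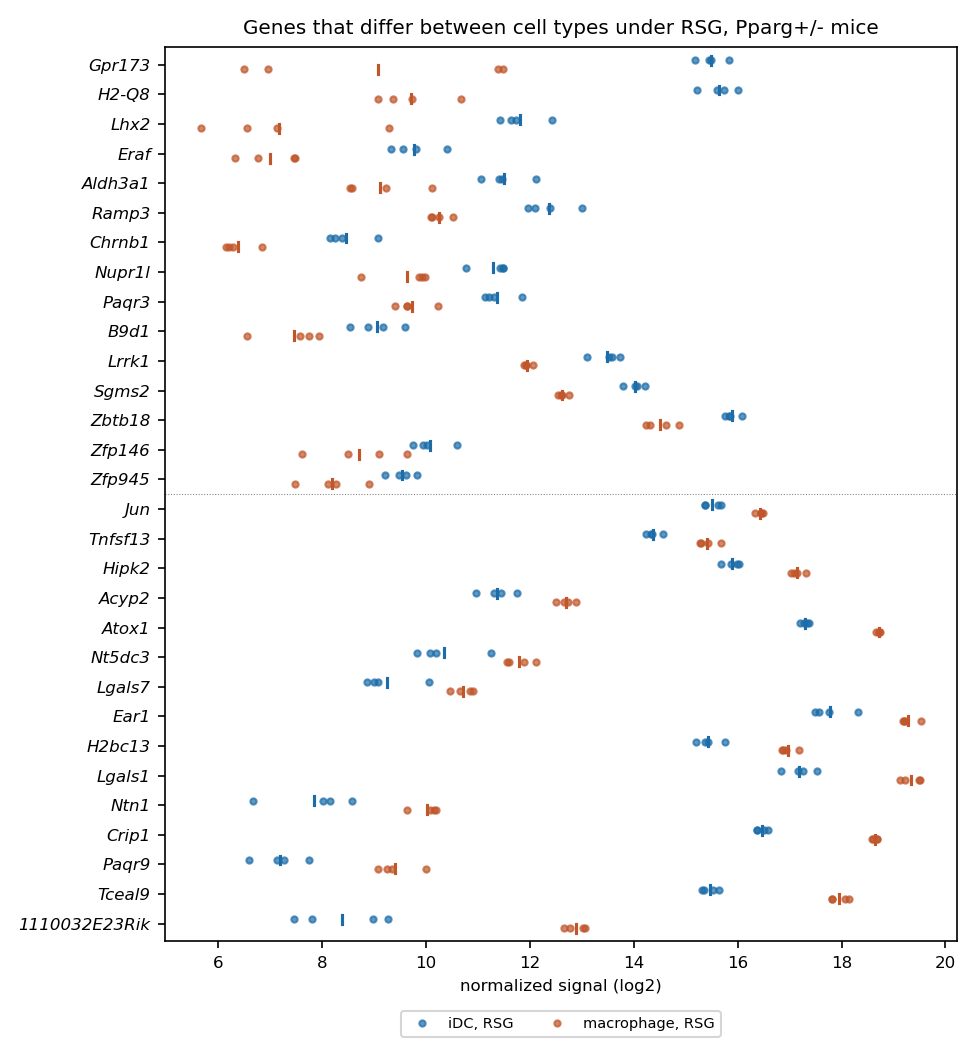
Normalized log2 signal of the 30 named genes with the largest differences between cell types under RSG (15 in each direction, groups without overlap), with 1 point per array and a vertical bar at the mean of 4 arrays. Blue points are iDCs and orange points are macrophages of Pparg+/- mice, and in each row the colours do not overlap, from Gpr173 at the top (6.41) to 1110032E23Rik at the bottom (-4.51).

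Among the other lists, to be read against the 30.5% of all probes called, none of 8 ubiquitin pathway probes and none of 7 olfactory and vomeronasal receptor probes tested was called in either direction. Of the 7 RIKEN and predicted transcripts tested, 1 was higher in iDCs and 1 was higher in macrophages. The 1 chemokine probe tested and the 2 probes of the list of small GTPases and their regulators, for Rap2b and Tbc1d16, were not called.

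Probes without a symbol held the largest differences. The gene model mCG1032064.1 was 17.98, 17.27, 16.60 and 16.79 in RSG-treated iDCs and was detected on 0 of 4 macrophage arrays, at least 986-fold higher (adjusted p = 7.7e-12). The gene model mCG16889.2 was 15.98, 15.63, 15.44 and 15.89 in macrophages and was detected on 0 of 4 iDC arrays, at least 252-fold higher in macrophages (adjusted p = 9.58e-12). Both were also called in the same direction under vehicle (adjusted p = 1.31e-11 and 4.63e-12). The gene model mCG22015.1 differed by 9.37 under RSG and by 5.75 under vehicle, and mCG114173 by -7.51 under RSG. Under vehicle mCG114173 was detected on 1 of 4 iDC and 4 of 4 macrophage arrays.

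The overall distance between the cell types rose with RSG in 2 of 4 mice and fell in 2. The distance was the root mean square of the log2 difference between the iDC array and the macrophage array of a mouse over the 16620 probes. It was 1.23, 1.21, 1.16 and 1.21 under vehicle in mice 1, 2, 3 and 4, and 1.18, 1.17, 1.27 and 1.31 under RSG. The distance fell in mice 1 and 2 (-0.0457 and -0.0383) and rose in mice 3 and 4 (0.106 and 0.104), so that the sign followed the scan day. Over the 10571 probes detected on all 16 Pparg+/- arrays it rose in 3 of 4 mice (mean 0.0265 ± 0.0363), and after median scaling the mean change was 0.00576 ± 0.0473. The mean change was 0.0316 ± 0.0850 (SD, n = 4; exact two-sided sign-flip test, p = 0.5), which is smaller than the spread between mice. With 4 mice this test cannot go below 0.125, so it could not have called a change. For scale, 2 arrays of the same Pparg+/- group lay 0.564 to 0.809 apart.

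Along axes drawn from the other mice, the position of the difference moved in the same direction in each mouse. An axis was drawn as the mean vehicle difference of the other 3 mice, and the difference of the mouse left out was placed on it, with 1 for the length of the axis. Vehicle differences lay at 0.919, 0.913, 0.878 and 0.912 and RSG differences at 0.750, 0.809, 0.783 and 0.815. The RSG position was the lower in 4 of 4 Pparg+/- mice, with changes of -0.168, -0.104, -0.0956 and -0.0971 (mean -0.116 ± 0.0349, SD, n = 4; exact two-sided sign-flip test, p = 0.125, the smallest possible). In the 4 Pparg fl/- mice the position fell as well, with changes of -0.113, -0.0857, -0.0993 and -0.105 (mean -0.101 ± 0.0116). On an axis drawn the same way from the RSG differences, a choice made after the data were seen, the order was reversed. There the RSG differences lay at 0.818 to 0.945 and the vehicle differences at 0.730 to 0.786, a mean change of 0.123 (p = 0.125, exact sign-flip test). The differences under each treatment thus lay nearer the full length of the axis drawn from that treatment. These positions therefore do not tell whether the cell types came together or moved apart.

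**Figure D2:**
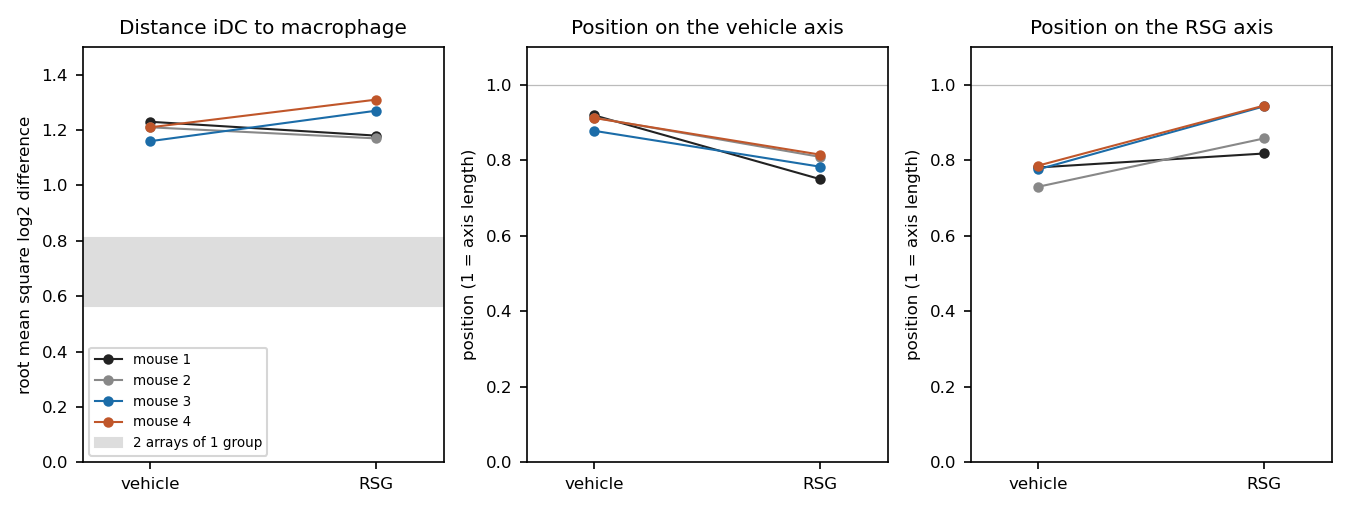
For each Pparg+/- mouse, the distance between its iDC and macrophage arrays (left; root mean square log2 difference) and the position of that difference on an axis drawn from the other mice under vehicle (middle) or under RSG (right; 1 is the axis length), with lines joining vehicle to RSG. The grey band is the distance between 2 arrays of 1 group (0.564 to 0.809). The distance fell in mice 1 and 2 and rose in mice 3 and 4, while position fell on the vehicle axis and rose on the RSG axis in all 4 mice.

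The calls under RSG and under vehicle were of similar number and largely shared. Under vehicle 5086 probes (30.6%) were called, 2375 higher in iDCs and 2711 higher in macrophages (1972 and 3598 after median scaling), and 3398 probes were called under both, which is 67.1% of the RSG calls and 66.8% of the vehicle calls. Of these, 3362 had the same direction and 36 the opposite one. Of 441 probes that differed by at least 8-fold under RSG, 390 (88.4%) were called in the same direction under vehicle. A call under 1 treatment only was not by itself a difference by treatment, since only 233 of 1664 (14.0%) RSG-only calls and 245 of 1688 (14.5%) vehicle-only calls passed the test of the change itself.

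That test, RSG difference minus vehicle difference, called 852 probes (5.13%), of which 472 (2.84%) moved toward iDCs and 380 (2.29%) toward macrophages. As many differences grew as shrank: 421 were larger under RSG and 431 were smaller, and for 324 the direction turned. Of all tested probes 49.5% had the larger difference under RSG. The RSG effect itself was called in iDCs alone for 535 of the 852 probes, in macrophages alone for 102, in both for 30 and in neither for 185. Over all probes RSG called 1309 (7.88%) in iDCs and 354 (2.13%) in macrophages of these mice. The count of 852 rests on all 4 mice, since it was 457, 341, 369 and 475 without mouse 1, 2, 3 and 4, and 141 and 125 within the 2 scan days of 2 mice each. Without the mouse block it was 502. After median scaling in place of quantile normalization it was 1079, with 902 toward iDCs and 177 toward macrophages. That scaling moved the median change of all probes from 0.0487 to 0.268, while 486 differences were larger and 593 smaller under RSG.

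**Figure D3:**
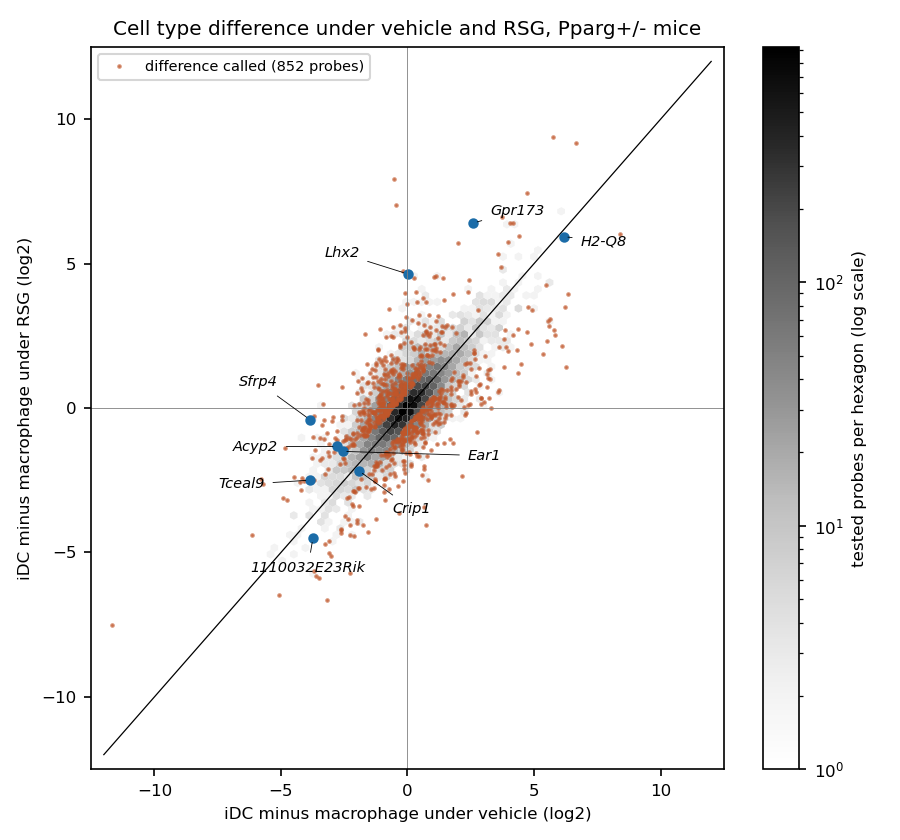
Difference between iDCs and macrophages (log2) under vehicle (horizontal axis) and under RSG (vertical axis) for 16620 probes of Pparg+/- cells; grey hexagons count probes on a log scale, the line marks equal differences, and orange points are the 852 probes whose difference changed. Named genes are in blue: H2-Q8, not detected in macrophages, lies near the line, whereas Lhx2, not detected under vehicle, lies above it.

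**Figure D4:**
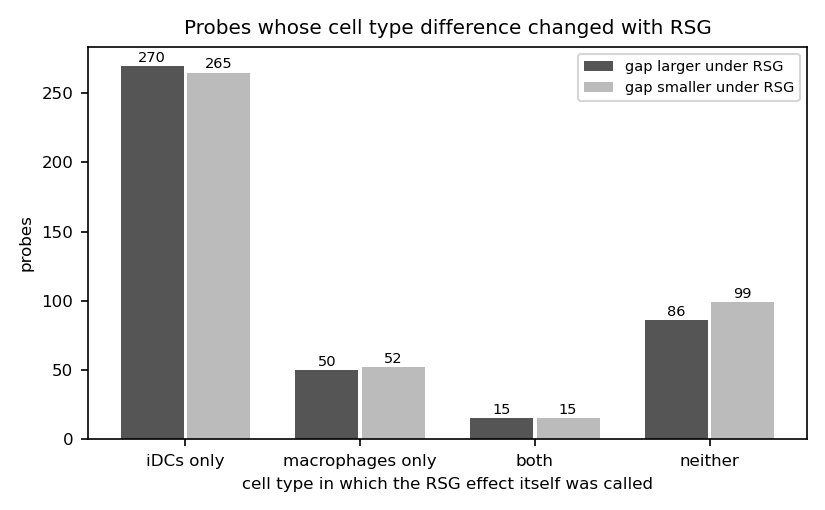
Number of the 852 probes by the cell type in which the RSG effect itself was called, with dark bars for a difference that was larger under RSG and light bars for one that was smaller. Calls in iDCs alone gave 270 larger and 265 smaller differences, and calls in macrophages alone gave 50 and 52.

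Some probes were detected in 1 cell type alone. Under RSG 307 probes were detected on 4 of 4 iDC and 0 of 4 macrophage arrays and 80 the other way round, against 179 and 205 under vehicle. Of these, 91 were iDC-only and 33 macrophage-only under both treatments. The imbalance under RSG goes with the larger number of probes detected on those iDC arrays given above.

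A change was called for 10 of the named probes, of 167 tested (5.99%, against 5.13% of all probes), and all of them are described here. Lhx2 encodes a LIM homeobox transcription factor. In RSG-treated iDCs it was 11.42, 11.74, 12.43 and 11.64, and in RSG-treated macrophages 7.14, 5.67, 6.55 and 9.28, detected in mouse 4 only. Under vehicle it was detected on no iDC and no macrophage array (6.49 ± 0.86 and 6.48 ± 0.85, SD, n = 4). The fitted difference under RSG was 4.64 ± 0.61 (SE; adjusted p = 2.47e-06) and that of the change 4.64 ± 0.86 (adjusted p = 0.00258), and as both are set against signal that was mostly not detected, their sizes depend on the background. The change was not called within either scan day (adjusted p = 0.103 and 0.110), without mouse 3 (adjusted p = 0.0502) or by the methods' t-test (adjusted p = 0.0517).

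Tceal9 and Acyp2 came closer together between the cell types. Tceal9, of the elongation factor A-like family, was 14.51, 14.40, 14.33 and 14.40 in vehicle-treated iDCs and 15.65, 15.35, 15.52 and 15.32 in RSG-treated iDCs, against 17.96 ± 0.17 in RSG-treated macrophages (SD, n = 4). Its difference went from -3.86 to -2.50, a change of 1.36 ± 0.19 (SE; adjusted p = 0.00031), and iDCs moved by 1.05 (adjusted p = 1.69e-05) and macrophages by -0.31 (adjusted p = 0.281). Acyp2, an acylphosphatase, was 9.91, 10.51, 10.40 and 10.69 in vehicle-treated and 11.31, 10.96, 11.44 and 11.75 in RSG-treated iDCs. Its difference went from -2.78 to -1.33 (change 1.45 ± 0.29, adjusted p = 0.00458). Within the second scan day neither change was called (Tceal9 1.29, adjusted p = 0.0673, and Acyp2 1.37, adjusted p = 0.0685). In both genes the RSG-treated iDCs lay above every vehicle-treated iDC and below every macrophage.

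Sfrp4 and Epdr1 were higher in macrophages under vehicle and did not differ by the test under RSG. Sfrp4, a secreted Wnt antagonist, was 12.55, 11.64, 10.08 and 10.60 in vehicle-treated macrophages and 8.68, 8.20, 8.11 and 7.17 in RSG-treated ones, detected on 4 of 4 and 0 of 4 arrays, while iDCs detected it on 1 of 4 arrays under RSG and none under vehicle. Its change was called (3.45 ± 0.91, SE; adjusted p = 0.0276), with a size that depends on the background. Epdr1, an ependymin-related lysosomal protein, was 9.97, 10.47, 9.15 and 9.39 in vehicle-treated and 8.59, 8.61, 8.05 and 8.36 in RSG-treated macrophages, and iDCs detected it on 1 of 4 arrays under vehicle and 2 of 4 under RSG. Its change was called (2.22 ± 0.60, adjusted p = 0.0319), again with a size that depends on the background. The RSG effect on Epdr1 was not called in either cell type alone. Neither change was called without mouse 1 (2.39, adjusted p = 0.215, and 1.59, adjusted p = 0.168), nor without any other of these mice, nor by the methods' t-test (Sfrp4 adjusted p = 0.126, Epdr1 adjusted p = 0.149).

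Rtl6 and Tmem251 also moved toward iDCs. Tmem251, a Golgi protein needed for the sorting of lysosomal enzymes, was 13.90, 14.01, 13.94 and 13.96 in vehicle-treated iDCs and 14.56, 14.49, 14.49 and 14.47 in RSG-treated iDCs, with RSG-treated macrophages at 14.50 ± 0.09 (SD, n = 4). Its difference went from -0.66 to 0.01 (change 0.66 ± 0.14, SE; adjusted p = 0.00593). Without mouse 1 the change was 0.54 (adjusted p = 0.0686). Rtl6, a Gag-like gene derived from a retrotransposon, went from -1.43 to -0.67 (change 0.76 ± 0.22, adjusted p = 0.0447), and this call was lost without mouse 1, 2, 3 or 4 (adjusted p = 0.104 to 0.212) and without the mouse block (adjusted p = 0.2).

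Akap7, Ghdc and Wnk4 moved the other way. Akap7, an anchor for protein kinase A, went from 1.08 to 0.34 (change -0.74 ± 0.21, SE; adjusted p = 0.0413). Ghdc went from 0.16 to -0.45 (change -0.60 ± 0.13, adjusted p = 0.00642), and Wnk4, a kinase that regulates ion transport, from 0.44 to -0.36 (change -0.81 ± 0.20, adjusted p = 0.022). After median scaling none of the 3 was called (adjusted p = 0.312, 0.356 and 0.164). Akap7 was not called without the mouse block (adjusted p = 0.522), with scan day as block (adjusted p = 0.429) or without mouse 1, 2, 3 or 4 (adjusted p = 0.0902 to 0.156), Ghdc not without mouse 2 (adjusted p = 0.102), and Wnk4 not without mouse 2, 3 or 4 (adjusted p = 0.0768 to 0.151). The methods' t-test did not call Akap7 (adjusted p = 0.111) or Wnk4 (adjusted p = 0.0944).

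**Figure D5:**
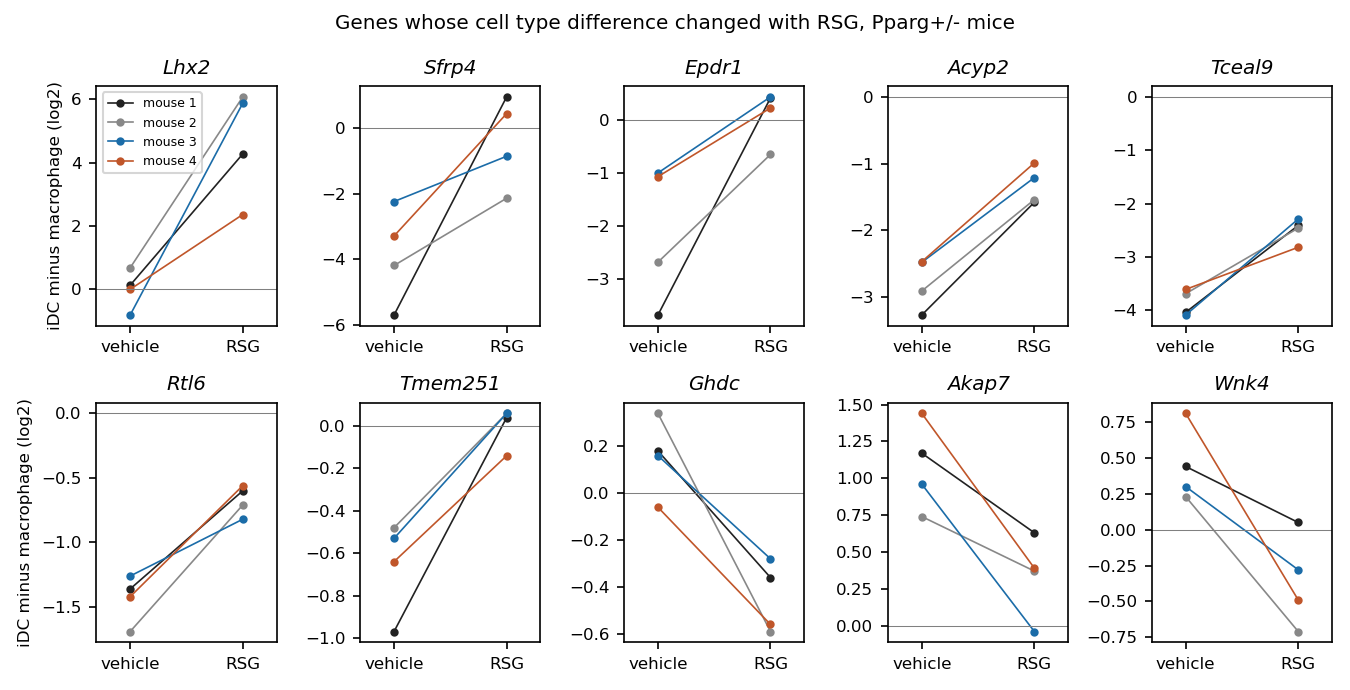
Difference between the iDC and the macrophage array of each Pparg+/- mouse (log2, 1 line per mouse) under vehicle and RSG for the 10 named genes whose difference changed; each panel has its own vertical scale and a grey line at 0. All 4 mice moved in the same direction in every panel, upward in the 7 genes from Lhx2 to Tmem251 and downward in Ghdc, Akap7 and Wnk4. The genes were chosen for this change in these same mice, so the agreement is no separate support.

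Changes were also called for probes without a symbol. The gene model mCG123381.1 was 14.20, 13.55, 14.01 and 13.87 in RSG-treated iDCs and was detected on 0 of 4 macrophage arrays, at least 199-fold higher in iDCs. Under vehicle it was detected on 1 of 4 iDC and 0 of 4 macrophage arrays, so no size is given for its change, which was called (adjusted p = 5.74e-06). The gene model mCG141486 was at least 130-fold higher in RSG-treated iDCs and was detected under vehicle on 0 of 4 iDC and 1 of 4 macrophage arrays (adjusted p of the change = 3.71e-05). In the other direction, mCG4516.2 went from 6.26 to 1.41 (adjusted p = 0.00101). The gene model mCG133512.1 was detected on 4 of 4 RSG-treated macrophage arrays (11.96, 11.09, 11.31 and 11.40) and 0 of 4 iDC arrays, at least 16.4-fold higher in macrophages, and on 1 of 4 arrays of either cell type under vehicle (adjusted p of the change = 0.00112).

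Promoters of the genes that changed were read for letters of the PPARγ and STAT6 binding motifs. RefSeq promoters of build GRCm38.p6, from 250 bases before to 50 bases after the start, were listed for 9 of the 10 genes. On both strands they were searched for AGGTCA (the core site of nuclear receptors), for its direct repeat with a spacing of 1 base (which contains the core site), for TTC followed after 4 or after 3 bases by GAA (STAT palindromes) and for TATAAA. These are held by 16.3%, 0.0396%, 6.95%, 8.30% and 13.6% of all 32851 promoters of this length. Among the 9 genes 1, Tmem251, held any of them, a core site at -180 from its first listed start. The 250 bases before that start (chr12:102743469-102743718, plus strand) and before the first of the 2 listed starts of Lhx2 (chr2:38339031-38339280, plus strand), shown as the transcription factor described above, read 5′ to 3′ as follows, with the core site (as TGACCT, on the other strand) in capitals.
Tmem251: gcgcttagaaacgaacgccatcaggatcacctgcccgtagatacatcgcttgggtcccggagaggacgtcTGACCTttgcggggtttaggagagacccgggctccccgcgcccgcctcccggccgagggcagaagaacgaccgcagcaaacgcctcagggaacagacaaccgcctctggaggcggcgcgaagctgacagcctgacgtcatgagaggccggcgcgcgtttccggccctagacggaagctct
Lhx2: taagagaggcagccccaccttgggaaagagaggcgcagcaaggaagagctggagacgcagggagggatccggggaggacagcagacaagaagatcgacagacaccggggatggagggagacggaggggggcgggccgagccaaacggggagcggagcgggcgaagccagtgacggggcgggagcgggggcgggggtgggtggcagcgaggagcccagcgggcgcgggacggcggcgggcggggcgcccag
A match describes these letters in this window only, and none in Lhx2 says nothing about binding elsewhere.

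In Pparg fl/- cells under RSG the same comparison called 4396 probes (26.5%). Of the 5062 Pparg+/- calls 53.4% were called in the same direction there, and these 2705 probes are 61.5% of the fl/- calls. The change of the distance with RSG, as the mean in Pparg fl/- minus that in Pparg+/- mice, differed by -0.0719 (exact two-sided permutation test of 4 against 4 mice, p = 0.2, where 0.0286 is the smallest possible). The test of RSG differences between genotypes called 1836 probes (11.0%), 807 toward iDCs and 1029 toward macrophages in fl/- cells. This count depended on the fit, being 67 when the RSG-treated arrays alone were used, 1 by the methods' t-test after adjustment, 3158 without mouse 5, 834 without mouse 6, 791 without mouse 7 and 1106 without mouse 1. After median scaling 320 moved toward iDCs and 1387 toward macrophages. Genotype and scan day cannot be told apart, since each day held mice of 1 genotype.

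This test called 23 of the 167 named probes (13.8%, against 11.0% of all probes), and 5 are given here as examples. In fl/- cells, 8 of the 23 moved toward iDCs and 15 toward macrophages. Zbtb18 differed by 0.09 there (1.37 in Pparg+/-; adjusted p of the genotype difference = 0.00464) and Paqr3 by -0.14 (1.64; adjusted p = 0.0131). H2-Q8 was called as well (adjusted p = 0.0383), with no size given since Pparg+/- macrophages did not detect it. Ear1 was higher in iDCs than in macrophages in fl/- cells, by 0.98 (against -1.50; adjusted p = 0.00336). Lhx2 was also called (adjusted p = 0.0225), against macrophage signal that was mostly not detected. With the RSG-treated arrays alone none of these 5 genotype differences was called (adjusted p = 0.0555 to 0.193). From vehicle to RSG they changed by -0.25 for Zbtb18 (adjusted p = 0.907), -0.02 for Paqr3 (adjusted p = 0.998) and 0.47 for Ear1 (adjusted p = 0.905). Most of the genotype difference of these 3 genes was thus present under vehicle as well. For H2-Q8 and Lhx2 this change was not called either (adjusted p = 0.89 and 0.425). Galectin genes differed in the same direction in both genotypes, Lgals1 at -2.01 and Lgals7 at -1.08 in fl/- cells, as did Lrrk1 at 1.60.

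The change of the cell type difference with RSG called 51 probes (0.307%) in Pparg fl/- cells, against 852 in Pparg+/- cells. It was 70, 1, 19 and 8 without mouse 5, 6, 7 and 8, and 27, 29 and 25 without mouse 2, 3 and 4, so the overlap that follows rests on these mice. Of the 51, 37 were among the 852 and all 37 had the same direction, which is 72.5% of the fl/- calls and 4.34% of the Pparg+/- calls. The test of the difference between genotypes in this change called 0 probes in limma, while 1373 (8.26%) lay under 0.05 without adjustment, and 1 was called by the methods' t-test with adjustment. Other limma settings called a few, 64 without mouse 5, 3 with an offset, 2 with a stricter detection filter, 2 without mouse 1 and 1 with scan day as block. Among the 852 probes, chosen for their change in Pparg+/- cells, the median change in that direction was 1.18 in Pparg+/- and 0.369 in Pparg fl/- cells, and 84.0% had the same sign in both, as had 60.5% of all tested probes. The smallest adjusted p of that test was 0.066.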

How the data were processed

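RNA of 32 cultures (4 mice per genotype, 2 cell types, 2 treatments) had been labelled with digoxigenin and hybridised to Applied Biosystems chemiluminescence arrays. The deposited scanner files give per probe a background-corrected signal intensity with its SD, an assay-normalized signal and a S/N score, and the authors' table gives ratios per array, which served as an alternative only. Software versions of the scanner are not given in the sources used here. The signals are linear, not scaled between arrays, and array number limits the precision. Signals were log2-transformed and quantile-normalized over 33012 noncontrol probes. Probes with S/N of at least 3 on 3 of 4 arrays of any group (16620) were tested in limma 3.58.1 (R 4.3.3) over all 32 arrays with group and mouse as terms, with calls made as the report states (p-values adjusted by Benjamini and Hochberg's method). Tables and figures used Python 3.11.15, numpy 2.4.6, pandas 2.3.3, scipy 1.17.1 and matplotlib 3.10.9. The scripts were tested on simulated data. The mouse number pairs samples because both cell types came from the same animal's marrow. Deviations from group means correlated at 0.0307 to 0.0754 for the RSG-treated arrays of the same mouse and at -0.0478 to 0.0327 for different mice. The scan day was read from the date in the header of each array's signal column and is not given by the sample labels. Each scan day held 8 arrays of 2 mice of 1 genotype.

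Named genes were, among probes with a symbol, the 15 largest called differences in each direction without overlap and the 10 largest called changes in each direction (fewer passed), with genes of fixed lists given in counts and examples, and at most 2 probes without symbol per direction and comparison. Symbols came from RefSeq transcripts (311 probes), RefSeq synonyms (5) or a supplementary table of the study (8). The members, lists and rules were chosen with earlier results of these data known. The RSG axis, the change in Pparg fl/- cells, its test against Pparg+/- cells and the counts of larger and smaller differences after median scaling were added after seeing the data. Alternatives were other normalizations, filters, thresholds and blocks, fewer arrays, the methods' t-test (equal variance) and leaving out each mouse. Lists without a tested probe were those for DCs, macrophages, PPARγ and lipid genes, neutrophils, mast cells, B cells, T and NK cells, stroma, cell cycle, interferon genes, transporters, mitochondria, ribosomes and matrix. The histone list held older symbols only and so missed the histone genes H2bc13 and H2bc18.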

Additional observations from a re-analysis of the deposited data

Results flagged for a closer look

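In sets of 4 arrays or mice, 1 value stood far from the other 3 in 7 of 88 sets, and chance gives about 1 in 20. Its gap to the nearest of the others, divided by the range of the 4, was above the 95% critical value of Dixon's test. The median absolute difference between cell types under RSG was 0.539 in mouse 4. On the vehicle axis mouse 3 lay at 0.878 under vehicle, and the change with RSG was -0.168 in mouse 1. The RSG-treated macrophage array of mouse 2 detected 15250 probes. Nupr1l was 10.76 in the RSG-treated iDCs of mouse 1 and 8.74 in the macrophages of mouse 4, and Ear1 was 19.53 in the RSG-treated macrophages of mouse 3.

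By tests of these differences themselves, the difference between the cell types differed between treatments for 852 probes in Pparg+/- cells and, under RSG, between the mice of the 2 genotypes for 1836 probes. The second count was 67 with the RSG-treated arrays alone and 1 by the adjusted t-test, and genotype and scan day cannot be told apart.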

How the results depend on the processing

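Among the 30 genes named for the difference under RSG, 739 of 749 alternative values kept direction and call, 10 lost the call and 0 reversed. Among the 10 genes named for the change with RSG, 155 of 230 did, 75 lost the call and 0 reversed. The mean change in distance was -0.000395 as a median absolute difference, and the change in position was 0.123 on the RSG axis. The cause of these shifts was not tested.

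Numbers of called probes moved as follows. Without the replicate block by mouse they were 4692 for the difference under RSG in Pparg+/- cells, 4796 under vehicle, 502 for its change with RSG, 4090 for the difference under RSG in Pparg fl/- cells, 1230 for the genotype difference under RSG and 18 for the change in Pparg fl/- cells. The first of these comparisons gave 3146 at a 2-fold threshold, and the second 3072. The change with RSG gave 514 without a detection filter, which tests more probes, 522 at 2-fold, 494 and 1781 by the methods' t-test with and without adjustment, and 141 and 125 within the scan days. The Pparg fl/- difference gave 6741 with no fold threshold, 2673 at 2-fold and 2621 by the adjusted t-test. The genotype difference gave 1092 without the filter, 1000 at 2-fold, 67 with the RSG-treated arrays alone and 1 by the adjusted t-test. The change in Pparg fl/- cells gave 16 without the filter, 0 and 534 by the t-test with and without adjustment, 26 with scan day as block, and 1 and 2 within scan days. The test of that change between genotypes gave 2 with a stricter filter, 3 with an offset, 1 and 1056 by the t-test with and without adjustment, and 1 with scan day as block.

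Leaving out each mouse gave 4726 to 5158 calls under RSG in Pparg+/- cells, 4751 to 5183 under vehicle, 341 to 1136 for the change, 3963 to 4600 under RSG in Pparg fl/- cells, 791 to 3158 for the genotype difference, 1 to 70 for the change in Pparg fl/- cells and 0 to 64 for its genotype test. The mean change in distance was 0.00678 to 0.0573, its genotype difference -0.0976 to -0.0471, the change in position -0.118 to -0.105 and the difference in detected probes 915 to 1590.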
